A study of Mus musculus with 12 samples.

Results

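The 9 genes described here are Pck1, G6pc, Fbp1, Pcx, Ppargc1a, Pdk4, Pklr, Pygl and Gys2. They act in, or regulate, glucose production, the storage and release of glycogen, or the making and burning of pyruvate. They were found by gene symbol in the annotation of the array platform, which gave 10 transcript clusters for them (Ppargc1a has 2) among 21789 clusters that carry exactly 1 symbol, for 19938 genes in all. Where a gene has several clusters, the cluster with the highest mean over the arrays stands for it. Gene expression was measured in liver RNA on 12 Affymetrix mouse Gene 1.0 ST arrays, and the deposited values are log2 signals. By their titles the arrays form 4 groups of 3. Controls were either euthyroid, as replicates 13, 14 and 15, or hypothyroid, as replicates 17, 18 and 20. Mutants were numbered 2, 3 and 4 when euthyroid and 5, 6 and 7 when hypothyroid. The design text calls the mutant line L-NCoR∆ID, and NCoR, a corepressor that nuclear receptors bind, is altered in its liver. The labels give no Cre driver, strain, sex, age or feeding state, and they do not say how hypothyroidism was produced. Nothing beyond the titles says that replicates were separate animals, so p-values measure the spread between these arrays. The level of Ncor1 itself was not analysed here, because no cluster carries that symbol alone.

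In fasting, the liver turns pyruvate, lactate and amino acids into glucose. Pyruvate carboxylase (Pcx) and phosphoenolpyruvate carboxykinase (Pck1) bypass the pyruvate kinase step, fructose bisphosphatase (Fbp1) bypasses phosphofructokinase, and glucose-6-phosphatase (G6pc) frees the sugar. Glycogen is built by glycogen synthase (Gys2 in liver) and broken down by glycogen phosphorylase (Pygl). Pyruvate enters the citric acid cycle through the pyruvate dehydrogenase complex, which kinases such as Pdk4 switch off and phosphatases such as Pdp2 switch on. The coactivator Ppargc1a is known to raise gluconeogenic transcription in fasting, and thyroid hormone is known to act on several of these genes through receptors that recruit NCoR when no hormone is bound.

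Promoter windows are shown for the 3 genes called between genotypes (Pck1, Pdk4 and Pygl), for Ppargc1a, which was called between thyroid states, and for G6pc, which was called in no comparison and is shown beside Pck1 as the enzyme that frees glucose at the end of the pathway. No promoter window was found for Gys2. The windows of Fbp1 and Pklr, which were also called between thyroid states, are counted below but not printed. Each window runs from 250 bases before to 50 bases after the annotated start, 5′ to 3′ on the gene's own strand, from RefSeq (GRCm38.p6). The printed windows lie at chr2:173152823-173153122 (Pck1, plus strand), chr11:101367466-101367765 (G6pc, plus strand), chr5:51567676-51567975 (Ppargc1a, minus strand), chr6:5496229-5496528 (Pdk4, minus strand) and chr12:70227634-70227933 (Pygl, minus strand). Capitals mark a match on either strand to the nuclear receptor core AGGTCA, the cAMP response element TGACGTCA or its core TGACG, the forkhead site TGTTTAC, the E-box CACGTG or the TATA box TATAAA.
Pck1: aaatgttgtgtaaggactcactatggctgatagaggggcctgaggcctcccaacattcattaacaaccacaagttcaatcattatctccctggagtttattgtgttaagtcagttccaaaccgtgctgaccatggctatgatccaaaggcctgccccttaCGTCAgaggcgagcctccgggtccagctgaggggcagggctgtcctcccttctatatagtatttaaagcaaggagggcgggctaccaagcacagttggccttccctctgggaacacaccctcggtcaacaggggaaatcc
G6pc: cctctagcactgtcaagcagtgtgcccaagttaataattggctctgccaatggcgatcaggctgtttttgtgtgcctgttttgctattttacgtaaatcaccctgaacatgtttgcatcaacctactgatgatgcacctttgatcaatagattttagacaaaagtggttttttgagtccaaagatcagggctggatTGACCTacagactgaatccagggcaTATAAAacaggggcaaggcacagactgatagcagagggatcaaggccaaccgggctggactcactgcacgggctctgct
Ppargc1a: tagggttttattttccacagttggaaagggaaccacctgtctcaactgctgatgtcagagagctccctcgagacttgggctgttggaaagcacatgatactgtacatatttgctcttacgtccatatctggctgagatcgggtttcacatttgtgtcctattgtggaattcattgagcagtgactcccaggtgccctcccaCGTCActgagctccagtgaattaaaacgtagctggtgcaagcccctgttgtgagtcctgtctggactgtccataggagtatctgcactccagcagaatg
Pdk4: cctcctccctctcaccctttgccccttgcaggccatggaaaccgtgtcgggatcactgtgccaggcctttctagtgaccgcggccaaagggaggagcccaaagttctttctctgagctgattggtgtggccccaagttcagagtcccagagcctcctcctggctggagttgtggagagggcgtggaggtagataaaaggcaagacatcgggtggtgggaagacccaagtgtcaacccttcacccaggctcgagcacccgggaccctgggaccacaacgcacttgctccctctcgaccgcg
Pygl: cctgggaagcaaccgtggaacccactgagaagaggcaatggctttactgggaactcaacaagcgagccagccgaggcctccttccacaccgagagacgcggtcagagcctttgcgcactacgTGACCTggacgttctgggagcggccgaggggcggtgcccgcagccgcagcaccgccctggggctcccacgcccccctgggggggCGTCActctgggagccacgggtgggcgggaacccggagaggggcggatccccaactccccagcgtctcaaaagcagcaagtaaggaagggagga

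The cAMP core lies on the minus strand at -90 to -86 in Pck1, at -49 to -45 in Ppargc1a and at -44 to -40 in Pygl, counted from the start site. The receptor core lies on the minus strand at -128 to -123 in Pygl and at -54 to -49 in G6pc, where a TATA box follows at -29 to -24. The Pdk4 window holds none of these letters. RefSeq windows were found for 8 of the 9 genes (10 windows, since Pcx and Pklr have 2 each). The receptor core was in 4 of these 10 windows and in 16.3% of all 32851 windows of that length, and the cAMP core, which the full element contains, was in 3 of 10 and in 20.8%. The E-box was in 1 of 10 (7.15% of all windows) and the TATA box in 2 of 10 (13.6%). The full cAMP element (1.79% of all) and the forkhead site (3.65% of all) were in 0 of 10. Such matches are descriptions of letters and show no binding.

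Facts of the whole series bear on what follows. Array medians ran from 4.16 to 4.32 and the SD of the values on an array from 2.22 to 2.35. The hypothyroid mutants had a higher SD (2.32 to 2.35) than every other array. In hypothyroid controls it was 2.29 to 2.30, above the 2.22 to 2.28 of euthyroid controls. Array SD thus partly followed the groups, so a fit with array SD as a covariate cannot separate array spread from group. In that fit the thyroid comparison averaged over genotypes called 0.831% of all clusters, against 6.04% without the covariate. The summed level of 6 of 6 hepatocyte markers was between 15.32 and 15.47 on every array. Of these markers Ttr was called higher with hypothyroidism averaged over genotypes, by 0.32 (adjusted p = 0.0259 by limma), and the other 5 were called in no comparison. Kupffer cell markers differed between groups, though hypothyroid mutants overlapped the others. The summed level of 7 of 7 genes was 9.12 to 9.28 in euthyroid controls and 8.56 to 8.66 in hypothyroid controls. It was 9.53 to 10.61 in euthyroid mutants and 8.64 to 9.59 in hypothyroid mutants. Adgre1 was called higher in mutants on average (0.66, adjusted p = 0.0427 by limma). Averaged over genotypes, Clec4f (-0.98, adjusted p = 0.00359 by limma) and Cd5l (-0.85, adjusted p = 0.0237) were called lower with hypothyroidism. Clec4f was also called lower in mutants alone (-1.06, adjusted p = 0.0489 by limma). Vsig4, C1qa, C1qb and Csf1r were called in no comparison. Of 4 measured adipocyte markers, Adipoq ran from 2.02 to 2.49, Lep from 2.37 to 3.09, Retn from 3.22 to 3.82 and Plin1 from 3.66 to 4.94, and none was called in any comparison by limma. The part of array spread or Kupffer cell RNA in the differences given here was not tested by these values. In bulk liver, fewer cells of a type and less RNA per cell cannot be told apart.

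Differences are on the log2 scale, and a gene was called at an adjusted p under 0.05 (limma with Benjamini-Hochberg adjustment over 21789 clusters). Averaged over thyroid states, Pdk4 and Pygl were higher and Pck1 lower in the mutants. Averaged over genotypes, Ppargc1a, Gys2, Fbp1 and Pklr were higher in hypothyroid mice. G6pc and Pcx were called in no comparison. No member was called in both averaged comparisons, although each used all 12 arrays. Short of a call, Gys2 (-0.52, adjusted p = 0.0785 by limma) and Ppargc1a (-0.48, adjusted p = 0.163) were also lower in mutants on average. Of the related genes described below, Pdp2 and Dlat were called in both.

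**Figure D1:**
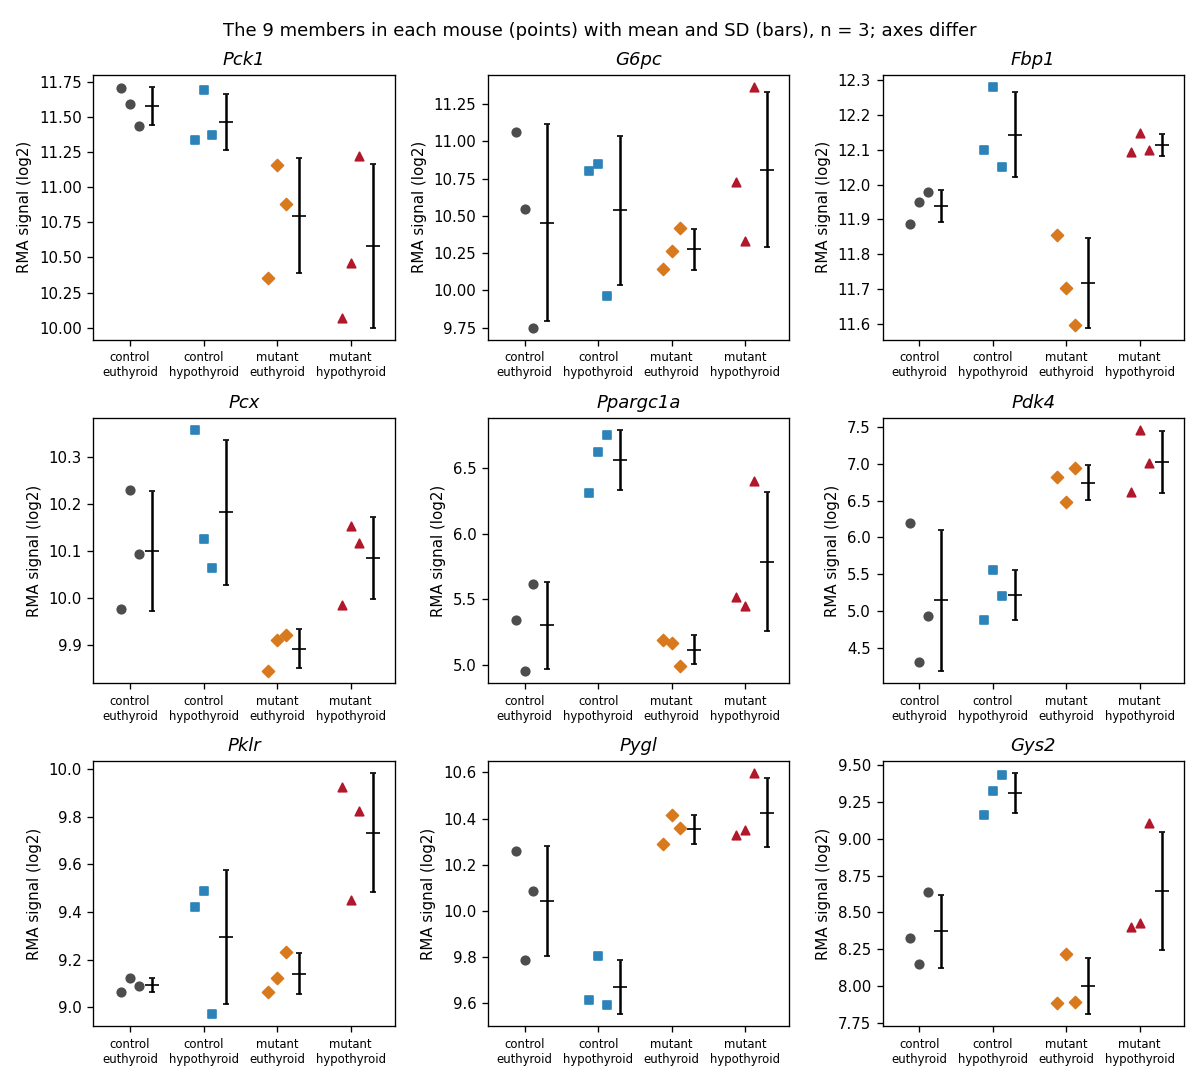
Log2 signal of each of the 9 genes on every array, by group (euthyroid and hypothyroid, control and mutant), with bars for the mean and SD (n = 3); each panel has its own vertical scale. Pdk4 lies above both control groups in all 6 mutants, whereas Gys2 is highest in the 3 hypothyroid controls.

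Set against all clusters, the members' counts were as follows. Members and companion lists were chosen with earlier results of these data known, so their counts are descriptions and not tests. Between mutants and controls, 0 of 9 were called among euthyroid mice (background 0.129% of clusters; 3 of 9 members had an unadjusted p under 0.05 by limma) and 2 of 9 among hypothyroid mice (0.262%). Between thyroid states, 2 of 9 were called in controls (1.11%) and 0 of 9 in mutants (1.11%; 4 of 9 had an unadjusted p under 0.05). The averaged comparisons called 3 of 9 between genotypes (1.14%) and 4 of 9 between thyroid states (6.04%). These backgrounds depend on single arrays: without control euthyroid 13 they were 8.56% and 16.4%, with 4 of 9 members called in each. They also depend on signal level, and all 9 members lie above the median level. In a fit on the 10894 clusters above it, the averaged comparisons called 2.33% between genotypes and 14.4% between thyroid states. The separate comparisons called 0.184% and 0.496% between genotypes (euthyroid, hypothyroid) and 2.92% and 2.25% between thyroid states (controls, mutants). The groups did not overlap in 5 of 9 among euthyroid mice (10.4%), 4 of 9 among hypothyroid mice (22.5%), 3 of 9 in controls (16.7%) and 5 of 9 in mutants (25.7%). All 6 arrays of one side were separate from the other 6 in 3 of 9 between genotypes (1.05%) and 1 of 9 between thyroid states (3.75%).

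Pck1, which makes phosphoenolpyruvate, was 11.71, 11.59 and 11.44 in euthyroid controls and 11.33, 11.69 and 11.37 in hypothyroid controls. It was 10.35, 11.16 and 10.88 in euthyroid mutants and 10.07, 10.46 and 11.22 in hypothyroid mutants. Every mutant was below every control, and the mutants were more spread out, with an SD of 0.41 and 0.58 against 0.14 and 0.20 in controls. Averaged over thyroid states, Pck1 fell by 0.83 ± 0.18 (SE, n = 6 against 6), 1.78-fold lower, at an adjusted p of 0.0338 by limma. The separate differences were -0.78 in euthyroid mice (adjusted p = 0.436 by limma) and -0.88 in hypothyroid mice (adjusted p = 0.238), neither called. The averaged call held under 7 of 19 alternatives. It was lost on leaving out any of 9 arrays (adjusted p 0.0578 to 0.0952) and held without control euthyroid 13, mutant euthyroid 3 or mutant hypothyroid 7. Hypothyroidism moved Pck1 by -0.11 in controls and -0.21 in mutants, both uncalled. Its mitochondrial counterpart Pck2 differed by -0.08 between mutants and controls.

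G6pc, which frees glucose, was 11.06, 10.55 and 9.75 in euthyroid controls and 10.80, 10.85 and 9.96 in hypothyroid controls. Mutants stood at 10.14, 10.27 and 10.42 when euthyroid and at 10.73, 10.33 and 11.37 when hypothyroid. The groups overlapped in each of the 4 comparisons of genotype or thyroid state. The mutant difference averaged over thyroid states was 0.05, with a 95% interval from -0.43 to 0.52. The within-group SD of G6pc exceeded that of 98.8% of clusters.

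Fbp1 was steadier, with a within-group SD above only 3.46% of clusters. It read 11.89, 11.95 and 11.98 in euthyroid controls and 12.10, 12.28 and 12.05 in hypothyroid controls. Euthyroid mutants were at 11.85, 11.70 and 11.60 and hypothyroid mutants at 12.09, 12.15 and 12.10. All 6 hypothyroid mice were above all 6 euthyroid mice. The hepatocyte marker Ttr moved by a like amount in this comparison (0.32), and its part in the result was not tested. The average rise was 0.30 ± 0.08, 1.23-fold (adjusted p = 0.0484 by limma), and it held under 4 of 19 alternatives. Of the arrays left out in turn, only the removal of control euthyroid 13 kept the call; the others gave adjusted p values of 0.0545 to 0.113.

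Pcx, which makes oxaloacetate from pyruvate, ran from 9.85 to 10.36 over all arrays. Euthyroid mutants (9.85, 9.91 and 9.92) were below euthyroid controls (9.98, 10.23 and 10.09), a difference of -0.21 (adjusted p = 0.680 by limma). The 17 measured companions of the gluconeogenesis list, from a list of 22, held 0 called genes in each of the 7 comparisons by limma. Over all clusters these comparisons called between 0% and 6.04%, so 0 of 17 lies near the background. The largest averaged differences were Pgk1, a shared glycolytic enzyme, in the mutants (0.38, adjusted p = 0.104) and Slc37a4, the glucose-6-phosphate transporter, in hypothyroid mice (0.49, adjusted p = 0.0732).

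Ppargc1a was the member that hypothyroidism raised most in controls. It was 5.34, 4.95 and 5.61 in euthyroid controls and 6.31, 6.62 and 6.75 in hypothyroid controls, with no overlap. In mutants it was 5.19, 5.17 and 4.99 when euthyroid and 5.51, 5.45 and 6.40 when hypothyroid. The rise in controls was 1.26 ± 0.23, 2.40-fold (adjusted p = 0.0122 by limma). In mutants the difference was 0.67 (adjusted p = 0.188), which did not pass, and the difference between the genotypes' responses was -0.59 with a 95% interval from -1.28 to 0.10. Replicate 7 was the highest mutant. Without it, mutants were below controls among hypothyroid mice by 1.08 (adjusted p = 0.0494), against -0.78 (adjusted p = 0.253) with it. Averaged over genotypes, Ppargc1a rose by 0.97 ± 0.16 (adjusted p = 0.00261), kept under 18 of 19 alternatives; with array SD as a covariate it was 0.62 (adjusted p = 0.341). The rise in controls was lost without hypothyroid control 18 or 20 (adjusted p 0.0592 and 0.0694). The other Ppargc1a cluster rose by 1.35 in controls (adjusted p = 0.0199).

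Gys2, glycogen synthase, followed the same order. It was 8.33, 8.15 and 8.63 in euthyroid controls and 9.16, 9.33 and 9.43 in hypothyroid controls. Mutants were at 7.89, 8.22 and 7.89 when euthyroid and at 8.40, 8.43 and 9.10 when hypothyroid. Hypothyroid mutants were all below hypothyroid controls. The rise in controls was 0.94 ± 0.19, 1.91-fold (adjusted p = 0.024 by limma), lost without control euthyroid 14 or any of the 3 hypothyroid controls (adjusted p 0.0581 to 0.114). In mutants the difference was 0.64 (adjusted p = 0.137). Averaged over genotypes the rise was 0.79 ± 0.13 (adjusted p = 0.00278), kept under 18 of 19 alternatives; with array SD as a covariate it was 0.49 (adjusted p = 0.357). The mutant difference averaged over thyroid states was -0.52 (adjusted p = 0.0785), uncalled; it passed under 4 of 19 alternatives, namely quantile normalization (-0.58, adjusted p = 0.0273) and leaving out control euthyroid 13 (adjusted p = 0.0356), mutant hypothyroid 7 (adjusted p = 0.0219) or both control euthyroid 14 and mutant hypothyroid 7 (-0.69, adjusted p = 0.012).

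**Figure D2:**
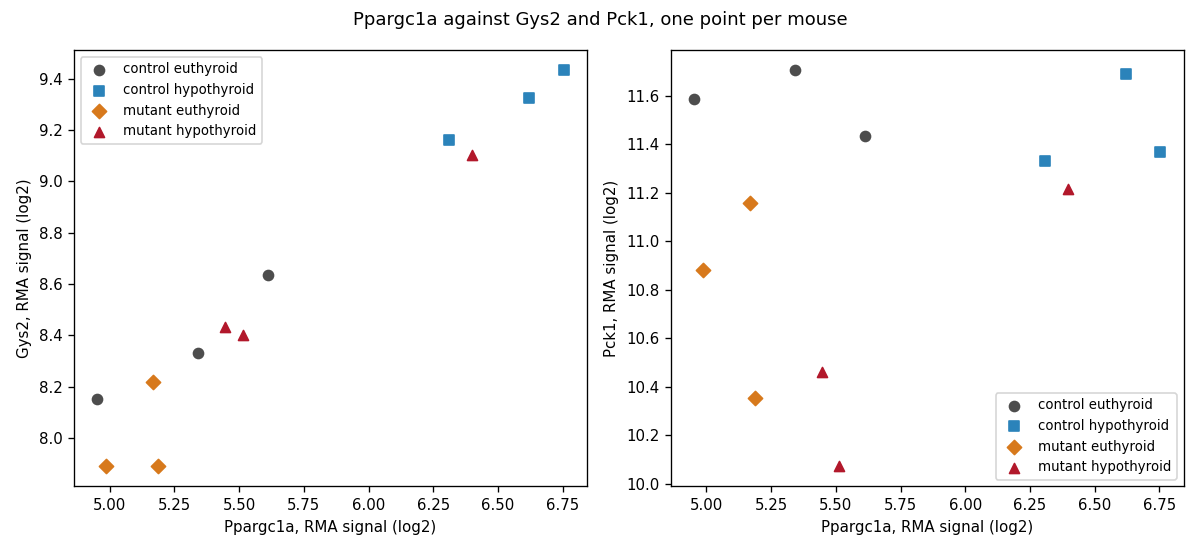
Gys2 (left) and Pck1 (right) against Ppargc1a, all as log2 signals, 1 point per array and 1 colour and symbol per group. Gys2 runs along a line with Ppargc1a, whereas all 6 mutants lie below the 6 controls in Pck1. Among the mutants, only hypothyroid 7 reaches the Ppargc1a range of hypothyroid controls (6.40). Its Pck1 is 11.22, against 11.33 in the lowest control.

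Among 10894 clusters brighter than the median, Ppargc1a and Gys2 were each other's closest match over the 12 arrays (Pearson r = 0.976). The points share groups, arrays and normalization, so this is a description. Within groups, the deviations from the group means correlated at 0.931, and at 0.740 without control euthyroid 14 and mutant hypothyroid 7. The other Ppargc1a cluster gave 0.784 within groups and 0.344 without those arrays.

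Pdk4, the kinase that switches off pyruvate dehydrogenase, differed most between genotypes. Euthyroid controls were at 6.19, 4.32 and 4.93 and hypothyroid controls at 4.89, 5.56 and 5.21. Euthyroid mutants were at 6.82, 6.47 and 6.94 and hypothyroid mutants at 6.62, 7.46 and 7.01. All 6 mutants were above all 6 controls. Pdk4 was 3.25-fold higher in mutants on average, by 1.70 ± 0.25 (adjusted p = 0.00342 by limma), kept under 18 of 19 alternatives; with array SD as a covariate it was 1.24 (adjusted p = 0.144). Among hypothyroid mice the difference of 1.81 was just past the threshold (adjusted p = 0.0493), held under 5 of 20 alternatives, and was lost without any of 10 arrays (adjusted p 0.0662 to 0.239). Among euthyroid mice the difference of 1.60 was not called (adjusted p = 0.124). Control 13 was the highest control, and without that array the difference was 2.12 (adjusted p = 0.0018). The effect of hypothyroidism was 0.07 in controls and 0.28 in mutants.

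**Figure D3:**
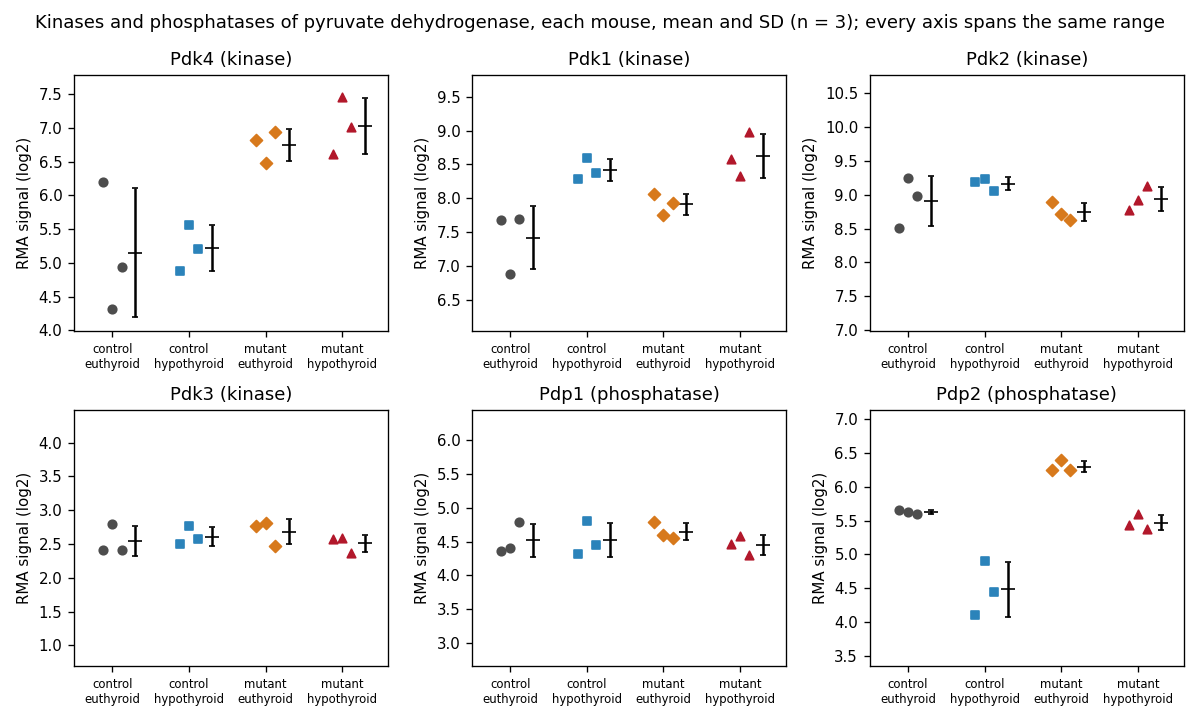
Log2 signals of pyruvate dehydrogenase kinases and phosphatases on each array, by group, with bars for the mean and SD (n = 3) and vertical axes of equal span. Pdk4 and Pdp2 are higher in mutants than in controls of the same thyroid state, while Pdk1 and Pdp2 move in opposite directions with hypothyroidism.

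Other regulators of the complex were called as well. Pdp2, a phosphatase that switches the complex on, was 5.66, 5.63 and 5.59 in euthyroid controls and 4.10, 4.91 and 4.45 in hypothyroid controls. It was 6.25, 6.39 and 6.26 in euthyroid mutants and 5.44, 5.59 and 5.38 in hypothyroid mutants. Pdp2 was higher in mutants by 0.83 ± 0.12 (adjusted p = 0.00277 by limma, kept under 18 of 19 alternatives) and lower in hypothyroid mice by -0.98 ± 0.12 (adjusted p = 0.00016, kept under 19 of 19). Pdk1 rose by 0.86 ± 0.15 with hypothyroidism (adjusted p = 0.00337). Pdk2, Pdk3 and Pdp1 were called in no comparison, with averaged mutant differences of -0.19, 0.02 and 0.03. The subunits Dlat (0.65, adjusted p = 0.0151) and Pdhb (0.53, adjusted p = 0.0388) were higher in mutants. The Pdhb call held under 6 of 19 alternatives and the Dlat call under 15. Dlat was also called higher with hypothyroidism averaged over genotypes, kept under 18 of 19 alternatives. With array SD as a covariate that thyroid difference was 0.29 (adjusted p = 0.604 by limma). In all, 3 of 11 measured genes of the list of 12 were called higher in mutants and 0 lower (1.14% of all clusters were called). In the fit on clusters above the median level, 2.33% were called. The median difference of the list was 0.36 against -0.01 over all clusters.

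Pklr, liver pyruvate kinase, was 9.06, 9.12 and 9.09 in euthyroid controls and 9.42, 9.49 and 8.97 in hypothyroid controls. Mutants were at 9.07, 9.12 and 9.23 when euthyroid and at 9.92, 9.45 and 9.82 when hypothyroid. The hypothyroid mutants were above every euthyroid mouse, and hypothyroid control 20 was below every euthyroid mouse. The average rise with hypothyroidism was 0.40 ± 0.11 (adjusted p = 0.0483 by limma), held under 6 of 19 alternatives; it was lost without any of 9 arrays (adjusted p 0.0652 to 0.118). In the glycolysis list (11 of 13 measured) Mlxipl, a carbohydrate-responsive transcription factor, was higher in mutants (0.62, adjusted p = 0.0461 by limma), a call that held under 6 of 19 alternatives and was lost with quantile normalization and without any of 9 arrays. With hypothyroidism, the glucokinase regulator Gckr (0.48), Pfkfb2 (0.57), the glucose transporter Slc2a2 (0.55) and ketohexokinase, Khk (0.36), rose. These calls held under 18, 9, 17 and 7 of 19 alternatives.

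Pygl, which breaks glycogen down, was 10.26, 9.79 and 10.09 in euthyroid controls and 9.61, 9.81 and 9.59 in hypothyroid controls. Euthyroid mutants were at 10.29, 10.42 and 10.36 and hypothyroid mutants at 10.33, 10.35 and 10.60. Every mutant was above every control. The averaged difference was 0.53 ± 0.10, 1.45-fold (adjusted p = 0.0169 by limma), kept under 15 of 19 alternatives and lost without control hypothyroid 17 (adjusted p = 0.0619). Among hypothyroid mice the difference was 0.75 ± 0.14 (adjusted p = 0.0397); it held under 7 of 20 alternatives and was lost without any of 10 arrays (adjusted p 0.0582 to 0.176). Among euthyroid mice it was 0.31 (adjusted p = 0.597).

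Of the glycogen list, 19 of 20 genes were measured. Ugp2, which makes UDP-glucose for glycogen, was 8.32, 8.26 and 8.43 in euthyroid controls and 9.52, 9.25 and 9.70 in hypothyroid controls. It was 8.09, 8.14 and 7.78 in euthyroid mutants and 9.29, 9.15 and 9.16 in hypothyroid mutants. Ugp2 rose by 1.17 ± 0.10 on average (adjusted p = 8.01e-06 by limma) and was kept under all 19 alternatives. The branching enzyme Gbe1 (0.90), the glycogen-binding protein Stbd1 (1.33), the glycogen-targeting phosphatase subunit Ppp1r3c (1.34) and phosphoglucomutase, Pgm1 (0.37), were also called higher with hypothyroidism. The Pgm1 call held under 8 of 19 alternatives and those of Gbe1, Stbd1 and Ppp1r3c under 18. In all, 5 of 19 were called higher and 0 lower (6.04% of all clusters were called). In the fit on clusters above the median level, 14.4% were called. The median of the list was 0.32 against -0.02 over all clusters. In the mutants 1 of 19 was called, the subunit Ppp1r3b (0.79, adjusted p = 0.0324 by limma). That comparison called 1.14% of all clusters, and 2.33% in the fit on clusters above the median level. The Ppp1r3b call held under 7 of 19 alternatives and was lost without any of 9 arrays. Adjusting for the SD of each array gave 0.50 (adjusted p = 0.503). Gys1 and Pygb, made chiefly in other tissues, differed by -0.03 with hypothyroidism and 0.10 with genotype.

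**Figure D4:**
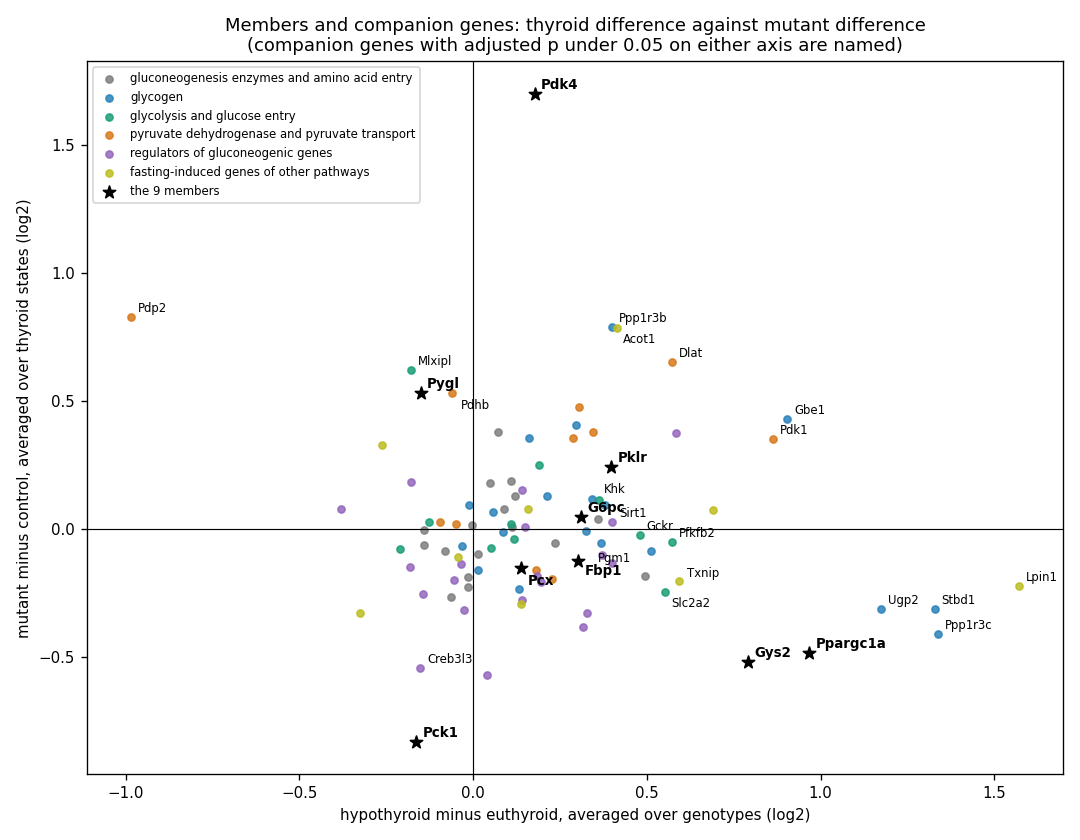
Mutant difference averaged over thyroid states (vertical) against hypothyroid difference averaged over genotypes (horizontal), both on the log2 scale, for the 9 genes (stars) and 87 companion genes (dots, coloured by list, named where called on either axis). Pdk4 is alone at the top, and Gys2 and Ppargc1a lie at the lower right beside Ugp2, Stbd1 and Ppp1r3c.

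Of the regulators of gluconeogenic genes (20 of 21 measured), Creb3l3, a fasting-responsive factor, was lower in mutants (-0.54, adjusted p = 0.0336 by limma) and the deacetylase Sirt1 was higher in hypothyroid mice (0.40, adjusted p = 0.0316). The Creb3l3 call held under 6 of 19 alternatives and the Sirt1 call under 7, and each was lost without any of 9 arrays. With array SD as a covariate the Sirt1 difference was 0.16 (adjusted p = 0.761). Cebpa, a liver transcription factor, had a mutant difference of -0.57 that did not pass (adjusted p = 0.0673). Of fasting-induced genes of other pathways (9 of 10 measured), Acot1 was higher in mutants (0.79), and Lpin1 (1.57) and Txnip (0.59) were higher in hypothyroid mice. These calls held under 11, 17 and 8 of 19 alternatives.

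**Figure D5:**
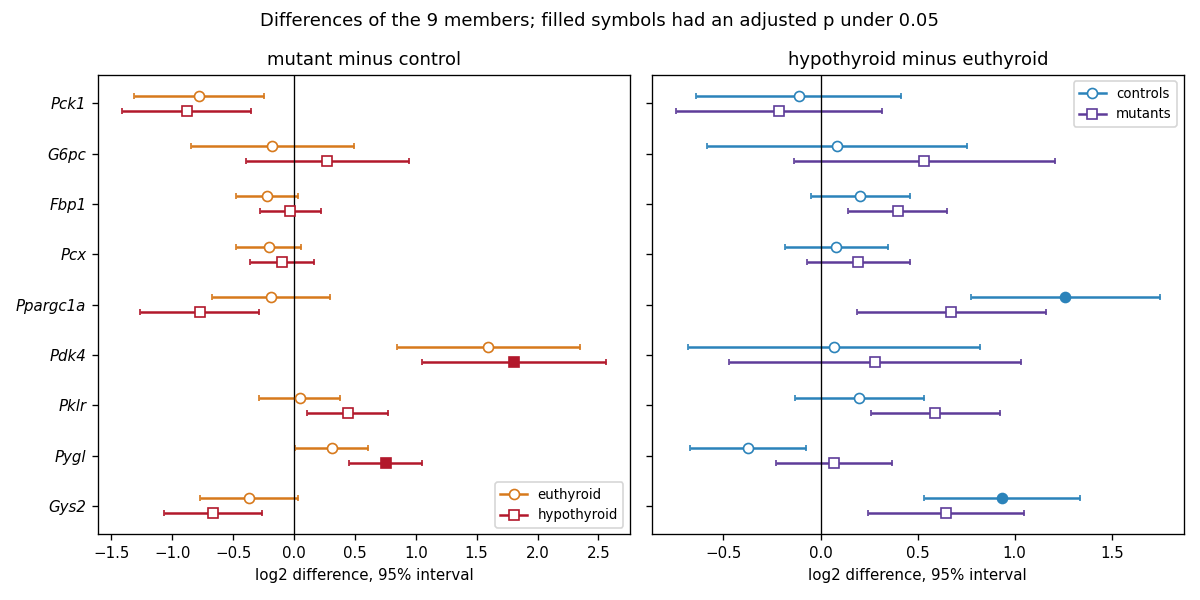
Log2 differences of the 9 genes between mutants and controls (left, by thyroid state) and between hypothyroid and euthyroid mice (right, by genotype), with 95% intervals; filled symbols had an adjusted p under 0.05 by limma. The intervals for Pdk4 and Pygl lie above 0 in both mutant comparisons, and those for Pck1 lie below 0 in both. Those for Ppargc1a and Gys2 lie above 0 in both comparisons of thyroid state.

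The median difference between mutants and controls was -0.13 over the members and -0.01 over all clusters, and between thyroid states 0.30 and -0.02. For 8 of 9 members the mutant difference had the same sign in euthyroid and hypothyroid mice, as it had in 66.5% of clusters. The thyroid difference had the same sign in controls and mutants for 8 of 9 members and 72.0% of clusters. The response of the genotypes to hypothyroidism differed for 0 of 9 members and 0% of clusters after adjustment by limma. At an unadjusted p under 0.05 there were 600 clusters and 1 member, Pygl, for which the mutant difference was 0.44 ± 0.20 larger in hypothyroid than in euthyroid mice (adjusted p = 1.00 by limma).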

How the data were processed

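Liver RNA was hybridised to 12 arrays, 1 for each titled sample. The values the authors deposited are log2 signals per transcript cluster made with RMA, per the submitters' processing notes; the RMA version and options were not stated there, and without scan dates no batch could be tested. Array number limits the precision. The table held 35557 clusters; 1621 with several symbols and 12147 with none were not tested for genes.

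From these values, 4 group means were fitted with limma 3.58.1 in R 4.3.3 over all 12 arrays, and 7 contrasts were tested with Benjamini-Hochberg adjustment over 21789 clusters. The code was tested on simulated data. Levels of different genes cannot be compared on these arrays. All 9 members are named. Of the companion lists the called genes are named, or the largest differences where none was called, and for each member its 3 closest clusters by correlation. Members and lists were chosen with earlier results of these data known. Alternatives were another normalization, other sets of clusters, array SD as a covariate, fewer groups, a trended robust prior and leaving out arrays. Promoter windows came from RefSeq (GRCm38.p6).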

Additional observations from a re-analysis of the deposited data

How the results depend on the processing

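Among hypothyroid mice, 2 members were called between genotypes. They became 1 with quantile normalization, with clusters above the median level and with a trended robust prior. They became 0 with every cluster of the table and with array SD as a covariate. Without the arrays at both ends of the first principal component (control euthyroid 14 and mutant hypothyroid 7), 4 were called. The share of all clusters called was 0.262% in the main fit, 0.271% with quantile normalization and 0.280% with the trended prior. It was 0.496% with clusters above the median level and 0.0872% with every cluster. With the covariate it was 0.0413%, and without both end arrays 0.239%. Between thyroid states in controls, 2 became 0 with every cluster and with the covariate. The share of all clusters was 0.477% and 0.629% in these fits, against 1.11% in the main fit. The 3 members of the averaged genotype comparison became 1 with every cluster, 0 with the covariate and 2 with median centring (Pck1 lost). They became 4 with quantile normalization (Gys2 gained) and 4 without both end arrays (Ppargc1a and Gys2 gained, Pygl lost). The share of all clusters was 0.335% with every cluster, 0.188% with the covariate and 1.14% with median centring, against 1.14% in the main fit. It was 1.19% with quantile normalization and 0.643% without both end arrays. The 4 of the averaged thyroid comparison became 2 with quantile normalization, every cluster or without both end arrays, and 0 with the covariate. The share of all clusters fell in these fits as well, from 6.04% to 4.74% with quantile normalization and 2.99% with every cluster. Without both end arrays it was 3.35%, and with the covariate 0.831%. Leaving out each array gave 0 to 1 members between genotypes in euthyroid mice, 0 to 2 in hypothyroid mice, 0 to 2 between thyroid states in controls, 1 to 5 for the averaged genotype and 2 to 4 for the averaged thyroid comparison. The share of all clusters called moved too: without control euthyroid 13 it was 0.881% between genotypes in euthyroid mice, against 0.129% on all arrays, 8.56% against 1.14% for the averaged genotype and 16.4% against 6.04% for the averaged thyroid comparison. Leaving out any other array gave 0.491% to 0.982% and 3.12% to 5.94% for the averaged comparisons. The fit on only the compared groups could not differ for the averaged comparisons, which use all arrays.

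Companion counts under alternatives were added after seeing the data. Glycogen genes called with hypothyroidism became 1 with every cluster in controls and in mutants. They became 1 with the covariate in controls and on average, and 0 with it in mutants. Leaving out arrays gave 1 to 4 in controls, 1 to 4 in mutants and 4 to 8 on average. Over all clusters, the share called with every cluster was 0.477% in controls and 0.482% in mutants. With the covariate it was 0.629% in controls, 0.165% in mutants and 0.831% on average. Pyruvate dehydrogenase genes called in mutants became 1 with every cluster or without both end arrays and 0 with the covariate, and 1 to 6 on leaving out arrays. For that comparison the share of all clusters was 0.335% with every cluster, 0.643% without both end arrays and 0.188% with the covariate. The cause of these moves was not tested. The fit on every cluster changed both the number of tests and the shared estimate of the spread.

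Members whose uncalled difference changed sign were as follows. With quantile normalization, Pklr between genotypes in euthyroid mice was -0.016, G6pc -0.071 and Pcx -0.094 between thyroid states in controls, Pygl -0.078 between thyroid states in mutants, G6pc -0.023 for the averaged genotype and Pcx -0.032 for the averaged thyroid difference. With median centring, Fbp1 between genotypes in hypothyroid mice was 0.036. With the covariate, Pdk4 between thyroid states was -0.42 in controls, -0.46 in mutants and -0.44 on average, its interaction was -0.046, Pygl in mutants was -0.20 and the averaged genotype difference of G6pc was -0.023. Without both end arrays, Pdk4 between thyroid states was -0.34 in controls and -0.026 on average, Pygl in mutants was -0.015, G6pc between genotypes in hypothyroid mice was -0.0050 and its averaged genotype difference was -0.067. Leaving out arrays, G6pc ran from -0.53 to 0.13 between genotypes in euthyroid mice, -0.014 to 0.51 in hypothyroid mice, -0.13 to 0.20 on average and -0.27 to 0.39 between thyroid states in controls. Fbp1 between genotypes in hypothyroid mice ran from -0.077 to 0.039 and Pcx between thyroid states in controls from -0.0056 to 0.15. Pdk4 between thyroid states ran from -0.34 to 0.59 in controls and -0.031 to 0.44 on average, and its interaction from -0.31 to 0.63. Pck1 between thyroid states in mutants ran from -0.53 to 0.042 and its interaction from -0.42 to 0.16. Pygl between thyroid states in mutants ran from -0.015 to 0.12. No paired analysis was possible because the replicate numbers differ between the groups.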

Other observations

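Beyond the pair of Ppargc1a and Gys2, the clusters most like each member over 12 arrays, among 10894 bright ones, were as follows, as a description of arrays that share groups and normalization. For Pdk4 they were 4931406C07Rik (Pearson r = 0.954), Me1 (0.949), which makes NADPH from malate, and Ehhadh (0.948), a peroxisomal fatty acid oxidation enzyme. For Pygl they were Cs (0.956), citrate synthase, Dmxl2 (0.937) and Ttpa (0.930). For Pck1 they were Sfxn2 (0.930), Gstz1 (0.872) and Fam168b (0.848). For Fbp1 they were Ttr (0.927), Nudt19 (0.918) and Etnppl (0.916), and for Pcx Tom1l2 (0.946), Dalrd3 (0.929) and Mroh1 (0.926). For Pklr they were Tmbim6 (0.931), Rras (0.917) and Dapk2 (0.888). G6pc had the loosest matches, Cks1b (0.851), Wasl (0.838) and Rhobtb1 (0.815). Ppargc1a was followed after Gys2 by Sntb1 (0.954) and Rbms1 (0.928), and Gys2 after Ppargc1a by Rbms1 (0.955) and Fam160b1 (0.951).

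Mutant hypothyroid 7 was the highest of its group in 5 of 9 members and the lowest in 0, and control hypothyroid 18 was the highest in 6 and the lowest in 0.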
